A study of Mus musculus with 6 samples.

Results

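Type I interferon response genes were described in the prefrontal cortex (PFC) of WT and P301S Tau mice from 6 RNA sequencing libraries. The 9 genes were Irf7, Ifit1, Ifit3, Isg15, Usp18, Oasl2, Rsad2, Bst2 and Ifi27. They were chosen by gene symbol, each matched a single row of the count tables, and together they were 9 of 54429 gene rows. Each group held 2 libraries from separate mice aged 6 months. The WT + vehicle group was the C57BL/6 x C3H control strain. The Tau + vehicle group was the PS19 strain, which carries a human tau transgene with the P301S mutation under the mouse prion protein (Prnp) promoter. The Tau + UNC0642 group was the same transgenic strain given UNC0642, an inhibitor of the histone methyltransferases EHMT1 and EHMT2, by daily intraperitoneal injection. The other groups were injected with its vehicle, saline with DMSO, and no WT library with UNC0642 was analysed here. RNA of whole PFC tissue was depleted of ribosomal RNA and sequenced, and all levels below are those of a mixture of cell types.

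Type I interferons are secreted proteins, mainly interferon alpha and beta, that cells make after sensing foreign or misplaced nucleic acid. They bind a receptor of the IFNAR1 and IFNAR2 chains, and the kinases JAK1 and TYK2 then activate a complex that includes STAT2 and IRF9 and binds the interferon-stimulated response element in the promoters of its target genes. In brain, microglia, endothelial cells, astrocytes and neurons can all carry out this response, and some targets are also read at a low level without infection.

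The letters of this response element stand in the promoters of several of the 9 genes, and the stretches that hold them are shown for the 5 genes with a match. Promoter sequences, 250 bases before to 50 after each gene start, were taken from RefSeq (GRCm38.p6), and 7 of the 9 genes matched an entry. The core of the element, searched on both strands as GAAA, any 2 bases and GAAA again, was present in 5 of the 7 promoters (71.4%). It was present in 28 of 61 promoters of other interferon-stimulated genes (45.9%) and in 1131 of all 32851 promoters (3.44%). The following stretches are written 5′ to 3′ on the strand of the gene, with the core in capitals. They lie at chr19:34640760-34640838 for Ifit1 and at chr19:34583348-34583441 for Ifit3, both on the plus strand, and on the minus strand at chr4:156200850-156200921 for Isg15, at chr8:71537562-71537627 for Bst2 and at chr12:26456538-26456597 for Rsad2.
Ifit1: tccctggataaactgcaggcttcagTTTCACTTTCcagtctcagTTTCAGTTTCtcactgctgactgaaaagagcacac
Ifit3: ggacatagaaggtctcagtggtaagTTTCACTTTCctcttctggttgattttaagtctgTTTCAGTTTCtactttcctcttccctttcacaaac
Isg15: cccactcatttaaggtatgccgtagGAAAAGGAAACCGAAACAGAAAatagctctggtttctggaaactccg
Bst2: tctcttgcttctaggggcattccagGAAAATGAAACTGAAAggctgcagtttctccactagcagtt
Rsad2: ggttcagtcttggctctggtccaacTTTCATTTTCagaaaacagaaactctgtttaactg

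Ifit1 and Ifit3 each held 2 separate copies of the core, beginning 104 and 85 bases before the start of Ifit1 and 156 and 122 bases before that of Ifit3, and in both genes the copies read the same letters in the same order. Isg15 held 3 overlapping copies from 78 bases before its start, Bst2 held 2 overlapping copies from 130 bases before it, and Rsad2 held 1 copy at 120 bases. The letters of the gamma-activated site, an element of interferon gamma targets (TTC, any 3 bases, GAA), were found in 1 of the 7 promoters (14.3%), that of Bst2, where the match overlapped the first core. They were found in 8 of the 61 other promoters (13.1%) and in 8.30% of all promoters. The promoter windows of Irf7 and Oasl2 held neither set of letters. Ifi27 and Usp18 had no entry.

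**Figure D1:**
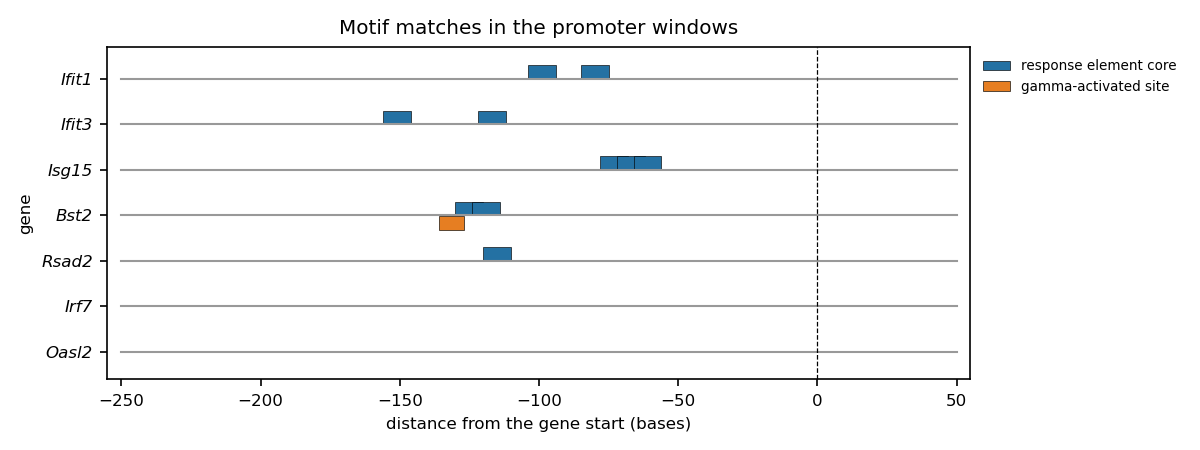
Position of the motif matches in the 7 promoter windows, with the distance from the gene start in bases on the x axis and a line for each gene. Blue boxes mark the response element core and the orange box the gamma-activated site, and in Ifit1, Ifit3, Isg15, Bst2 and Rsad2 all matches lie between 156 bases before the start and the start itself.

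The libraries held 17005664 to 28972176 counts, and Tau replicate 2 and UNC0642 replicate 1 were the least deep. Levels are given as CPM, counts scaled to a common library size corrected by TMM, and a floor of 3 counts was 0.107 to 0.178 CPM. The marker genes of neurons summed to 7799 to 8629 CPM and those of astrocytes to 4888 to 5534 CPM in every library, as brain tissue carries them, and no gene particular to cortex was examined. Xist, read from the silenced X chromosome of females, had 4104 to 8107 counts in WT replicate 2 and both Tau + vehicle libraries and 2 to 5 counts in the others, while the Y-linked gene Ddx3y had 1705 to 2241 counts in WT replicate 1 and both UNC0642 libraries and 2 to 18 in the others. Sex and UNC0642 treatment therefore cannot be told apart within the Tau mice. Each Tau group holds 1 sex-linked pattern. A term for sex-linked expression, used below, was therefore set by the 2 WT libraries alone. Against WT it nearly repeats a fit without 1 WT library, and within the Tau mice it cannot separate sex from treatment. Prnp, whose promoter drives the transgene, stood at 1652 CPM in the library labelled WT replicate 1 and 873 CPM in WT replicate 2, against 1470 to 1694 CPM in the 4 Tau libraries. For the 9 genes the differences from WT are therefore also given without the library labelled WT replicate 1. That library is also the only WT library with high Ddx3y. Without it, sex and group coincide in Tau + UNC0642 against WT, while Tau + vehicle and WT share the Xist pattern. Mapt, the mouse tau gene, stood at 576 CPM in the library labelled WT replicate 1 and 449 CPM in WT replicate 2, against 571 to 614 CPM in the 4 Tau libraries. Whether the library labelled WT replicate 1 came from a mouse with the transgene was not tested. Mapt, Ehmt1 and Ehmt2 were not called in any comparison. Summed markers of oligodendrocytes reached 5794 CPM in Tau replicate 2 and 1526 to 3093 CPM in the other libraries.

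All 9 genes were detected in every library and passed the filter on low counts. Scaled by exon length, the mean level over the 6 libraries was highest for Ifi27, at 12.8 CPM per kilobase, followed by Ifit3 at 4.81, Ifit1 at 1.55 and Bst2 at 1.11 CPM per kilobase. The remaining genes lay between 0.380 CPM per kilobase (Oasl2) and 0.676 CPM per kilobase (Isg15). These are low levels, and Isg15, Bst2, Usp18 and Irf7 rested on 3 to 63 counts per library. Across the 6 libraries the highest level of a gene was 1.36 times its lowest for Ifi27 and 5.28 times its lowest for Isg15, with the other 7 genes in between. The replicates are the labelled biological duplicates, and with 2 mice per group the p-values below rest on a spread estimated from all 3 groups together. A gene is described as called, risen or fallen where it passed the study's threshold, a fold of 1.2 or more in either direction at an unadjusted p under 0.05. In bulk tissue, fewer cells of a type and less RNA per cell cannot be told apart.

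Irf7 encodes the transcription factor that amplifies interferon alpha production. Its level was 1.81 and 1.80 CPM in the WT libraries (replicates 1 and 2 in this order here and below), 2.25 and 1.26 CPM in Tau + vehicle, and 2.25 and 2.03 CPM in Tau + UNC0642. Tau replicate 2 was the lowest library and the WT levels lay between the 2 Tau + vehicle levels. The gene lies on chromosome 7 (GRCm38, 141262706 to 141266481, minus strand), and 45 of its exon bases (1.2%) are shared with Phrf1 on the opposite strand. The difference between Tau + vehicle and WT was -0.011 ± 0.36 on the log2 scale (SE, adjusted p = 0.9934), and that between UNC0642 and vehicle in Tau mice was 0.25 ± 0.36 (adjusted p = 0.8855), both by edgeR's quasi-likelihood test with p-values adjusted over all genes tested.

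Ifit1 and Ifit3 encode proteins with tetratricopeptide repeats that bind viral RNA or partner with such proteins, and are neighbours on chromosome 19 (34640871 to 34650009 and 34583531 to 34588731, both on the plus strand). Ifit1 was at 4.57 and 5.12 CPM in WT, 4.25 and 2.63 CPM in Tau + vehicle, and 3.32 and 4.85 CPM in Tau + UNC0642. Both Tau + vehicle libraries were below both WT libraries, and the UNC0642 libraries overlapped both other groups. The log2 fold change of Ifit1 between Tau + vehicle and WT was -0.47 ± 0.29 (adjusted p = 0.5381, edgeR). Without Tau replicate 1 it was -0.88 and was called (adjusted p = 0.4513, edgeR), and the lone Tau + vehicle library was then assumed to vary like the other groups.

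Ifit3 was at 10.6 and 9.14 CPM in WT, 8.94 and 7.39 CPM in Tau + vehicle, and 6.69 and 7.68 CPM in Tau + UNC0642. The groups fell in this order of their means, from 9.85 ± 1.01 to 8.16 ± 1.10 and 7.18 ± 0.696 CPM (SD, n = 2), WT did not overlap either Tau group, and the Tau groups overlapped each other. Against WT, Ifit3 fell by 0.45 ± 0.18 on the log2 scale in Tau + UNC0642, a fold of 0.731 with a 95% interval of -0.85 to -0.05 on the log2 scale (adjusted p = 0.3565, edgeR). It was called, at the unadjusted threshold alone. Without the library labelled WT replicate 1 the difference was -0.35 (adjusted p = 0.6083, edgeR), and without UNC0642 replicate 1 it was -0.36 (adjusted p = 0.7559, edgeR), and neither was called. DESeq2's Wald test gave -0.45 and no call (adjusted p = 0.4796). Ifit3b, a near-identical copy of Ifit3 (97.8% over 1700 aligned bases), can take a share of its reads, and the strand or multimapping settings of the counting were not given in the sources used here. Ifit3b stood between 3.93 and 5.76 CPM, and with both genes summed the change was -0.35 and still called (adjusted p = 0.3729, edgeR).

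Isg15 encodes a ubiquitin-like protein that is attached to other proteins, and Usp18 encodes the protease that removes it and also restrains signalling at the receptor. Isg15 (chromosome 4, 156199424 to 156200818, minus strand) had 23 and 12 counts in WT, 14 and 3 counts in Tau + vehicle, and 6 and 15 counts in Tau + UNC0642. These are levels of 0.907 and 0.469 CPM, 0.501 and 0.172 CPM, and 0.355 and 0.662 CPM, and the ranges of all 3 groups overlapped. The exact Poisson 95% intervals of the lowest and highest counts, 0.619 to 8.77 and 14.6 to 34.5, cover counting error only. The log2 fold change between Tau + vehicle and WT was -0.94 ± 0.69 with a 95% interval of -2.47 to 0.60. A change of this size was not detectable with these counts and 2 mice per group. Leaving out 1 library moved this log2 fold change between -1.97 (without Tau replicate 1) and -0.40 (without the library labelled WT replicate 1). The difference between UNC0642 and vehicle in Tau mice, 0.53 ± 0.73, moved between 0.0021 (without UNC0642 replicate 2) and 1.56 (without Tau replicate 1). AC151275.1, a copy of Isg15 with 95.2% identity over 482 bases, had 19 counts in the library labelled WT replicate 1 and 1 to 5 in the others. With both summed the log2 fold changes of Isg15 were -1.06 for Tau + vehicle against WT, 0.47 for UNC0642 against vehicle in Tau mice and -0.59 for Tau + UNC0642 against WT.

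Usp18 (chromosome 6, 121245906 to 121270917, plus strand) was at 1.66 and 1.29 CPM in WT, 0.965 and 0.973 CPM in Tau + vehicle, and 0.770 and 1.81 CPM in Tau + UNC0642. Both Tau + vehicle libraries were below both WT libraries, and the UNC0642 libraries were the lowest and the highest of all 6. The log2 fold change between Tau + vehicle and WT was -0.60 ± 0.46 (adjusted p = 0.6247, edgeR), and that between UNC0642 and vehicle in Tau mice was 0.44 ± 0.47 (adjusted p = 0.8332, edgeR). A lincRNA on the opposite strand, Gm44148, shares 124 of its exon bases (4.4%).

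Oasl2 and Rsad2 encode antiviral enzymes or enzyme-like proteins: Oasl2 belongs to the oligoadenylate synthetase-like family, and Rsad2 (viperin) makes a nucleotide that stops viral RNA synthesis. Oasl2 (chromosome 5, 114896936 to 114912234, plus strand) was at 1.70 and 1.56 CPM in WT, 2.47 and 2.18 CPM in Tau + vehicle, and 2.13 and 4.50 CPM in Tau + UNC0642. The WT libraries were the lowest of the 6, and UNC0642 replicate 2 was 2.11 times as high as UNC0642 replicate 1. Against WT, Oasl2 rose in Tau + UNC0642 by 1.04 ± 0.37 on the log2 scale, a fold of 2.06 with a 95% interval of 0.21 to 1.87 on the log2 scale (adjusted p = 0.3131, edgeR). This value rested largely on UNC0642 replicate 2, since without it the difference was 0.39 and was not called (adjusted p = 0.837, edgeR). Without UNC0642 replicate 1 it was 1.46, and without the library labelled WT replicate 1 it was 1.10 (adjusted p = 0.4476, edgeR), both called. Without WT replicate 2 it was 0.99 and was not called (adjusted p = 0.471, edgeR).

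Between Tau + vehicle and WT the log2 fold change of Oasl2 was 0.52 ± 0.38 (adjusted p = 0.6061), and between UNC0642 and vehicle in Tau mice it was 0.52 ± 0.37 (adjusted p = 0.7154, edgeR). The latter was 0.95 and called (adjusted p = 0.7457) without UNC0642 replicate 1 and -0.13 without UNC0642 replicate 2. Rsad2 (chromosome 12, 26442746 to 26456452, minus strand) was at 3.71 and 2.73 CPM in WT, 2.29 and 2.63 CPM in Tau + vehicle, and 2.01 and 2.82 CPM in Tau + UNC0642. Both Tau + vehicle libraries were below both WT libraries, and the UNC0642 libraries overlapped both other groups. Its log2 fold changes were -0.39 ± 0.30 for Tau + vehicle against WT (adjusted p = 0.6283) and -0.0079 ± 0.31 for UNC0642 against vehicle in Tau mice (adjusted p = 0.9952, edgeR).

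Bst2 (tetherin) holds budding virus particles at the cell surface, and Ifi27 encodes a small mitochondrial or nuclear membrane protein. Bst2 (chromosome 8, 71534255 to 71537456, minus strand) was at 0.828 and 0.547 CPM in WT, 0.858 and 1.03 CPM in Tau + vehicle, and 1.89 and 0.882 CPM in Tau + UNC0642. The WT libraries were the lowest of the 6, and UNC0642 replicate 1 was 2.15 times as high as replicate 2, the opposite of the order for Oasl2. The log2 fold change of Bst2 between Tau + UNC0642 and WT was 0.98 ± 0.51 (adjusted p = 0.4713, edgeR) and was not called, and without UNC0642 replicate 2 it was 1.45 and called (adjusted p = 0.6688, edgeR).

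Ifi27 (chromosome 12, 103434211 to 103440239, plus strand) was at 21.3 and 17.6 CPM in WT, 15.7 and 18.8 CPM in Tau + vehicle, and 18.2 and 20.7 CPM in Tau + UNC0642. All groups overlapped. It was the most precisely measured of the 9 genes: the 95% interval of its fold between Tau + vehicle and WT ran from 0.707 to 1.11, and its log2 fold change between Tau + UNC0642 and WT was 0.0041 ± 0.15 (adjusted p = 0.9954, edgeR).

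**Figure D2:**
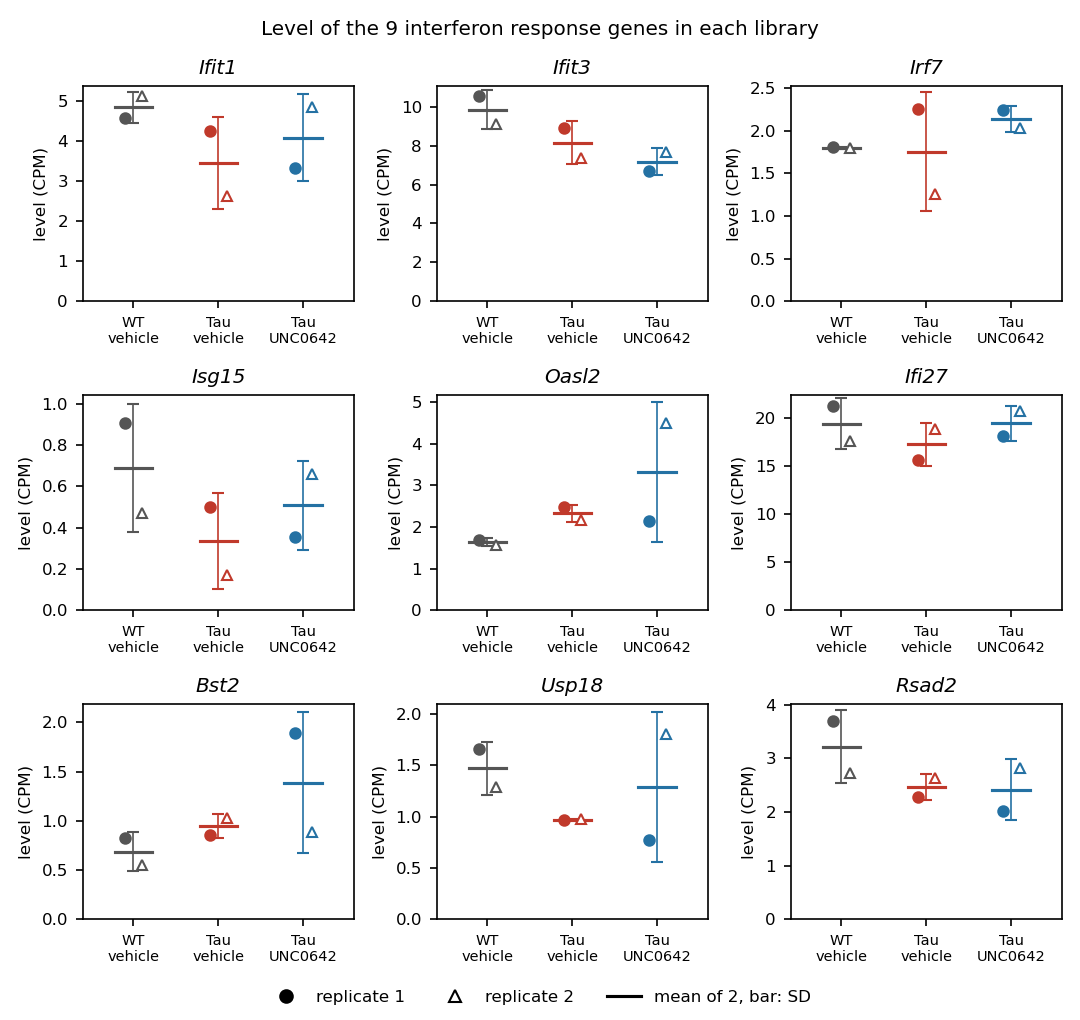
Level of each gene in CPM on the y axis, from 0, in the WT + vehicle, Tau + vehicle and Tau + UNC0642 groups. Circles are replicate 1, triangles replicate 2, horizontal lines the mean and error bars the SD of the 2 libraries. Oasl2 and Usp18 are spread most by the higher UNC0642 replicate 2, Bst2 by the higher UNC0642 replicate 1, and in Ifit3 the means step down from 9.85 to 7.18 CPM.

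The first comparison asked what the tau transgene changed in PFC. Between Tau + vehicle and WT none of the 9 genes was called by edgeR's quasi-likelihood test, and none had an unadjusted p under 0.05. DESeq2's Wald test also called 0. Of all 20409 genes tested, 9.81% were called, 3.72% higher and 6.10% lower, and 0.157% had an adjusted p under 0.05. The log2 fold changes were below 0 for 7 genes and above 0 for Oasl2 and Bst2, with a median of -0.26 beside -0.0001 over all genes. The groups did not overlap for 6 genes, namely Ifit1, Ifit3, Usp18 and Rsad2, lower in Tau + vehicle, and Oasl2 and Bst2, higher in it, while 43.2% of all genes tested had groups that did not overlap. All 9 of the 95% intervals included 0, and the smallest adjusted p was 0.5381. The intervals of the fold ran from 0.633 to 1.09 for Ifit3 and from 0.180 to 1.52 for Isg15, so the precision differed widely among the genes. Without the library labelled WT replicate 1 the differences were nearer to 0 for Ifit3 (-0.16), Isg15 (-0.40), Usp18 (-0.41), Rsad2 (-0.16), Ifi27 (-0.036) and Irf7 (-0.0050), and further from it for Ifit1 (-0.55), Oasl2 (0.57) and Bst2 (0.77). None was called then either.

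The second comparison asked what UNC0642 changed in Tau mice, where treatment and sex coincided. None of the 9 genes was called by edgeR's test, by DESeq2's Wald test or at an unadjusted p under 0.05, and the smallest adjusted p was 0.7154. Over all genes 7.69% were called, 3.73% higher and 3.95% lower, and 0.0196% had an adjusted p under 0.05. The log2 fold changes were above 0 for 7 genes and below 0 for Ifit3 and Rsad2, with a median of 0.25 beside -0.0023 over all genes. For each of the 9 genes the UNC0642 and vehicle levels overlapped, while 41.3% of all genes had groups that did not overlap. This comparison and the first share the Tau + vehicle libraries, so a low value in those libraries enters both with opposite signs.

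The third comparison set treated Tau mice against WT. Here 2 of the 9 genes were called, Oasl2 higher and Ifit3 lower (22.2%), beside 9.47% of all genes, of which 3.77% were higher and 5.69% lower. None of the 9 passed an adjusted p under 0.05, as 0.216% of all genes did, and the smallest adjusted p was 0.3131. With a term for sex-linked expression Ifit3 stayed called and Oasl2 had a log2 fold change of 0.98 and was not called (adjusted p = 0.4821, edgeR). That term rests on the 2 WT libraries alone and nearly repeats the fit without WT replicate 2. The groups did not overlap for 4 genes, Ifit3, Irf7, Oasl2 and Bst2, beside 44.4% of all genes. The median of the 9 log2 fold changes was -0.16 beside -0.0123 over all genes. In the WT group only the library labelled WT replicate 1 shares the sex-linked pattern of the treated mice. Leaving it out makes sex and group coincide in this comparison. Without the library labelled WT replicate 1 the differences of the genes other than Ifit3 and Oasl2 were -0.32 for Ifit1, -0.17 for Rsad2, 0.25 for Irf7 and 1.31 for Bst2, and 0.14 for Isg15, 0.15 for Ifi27 and 0.028 for Usp18, and none of these was called.

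**Figure D3:**
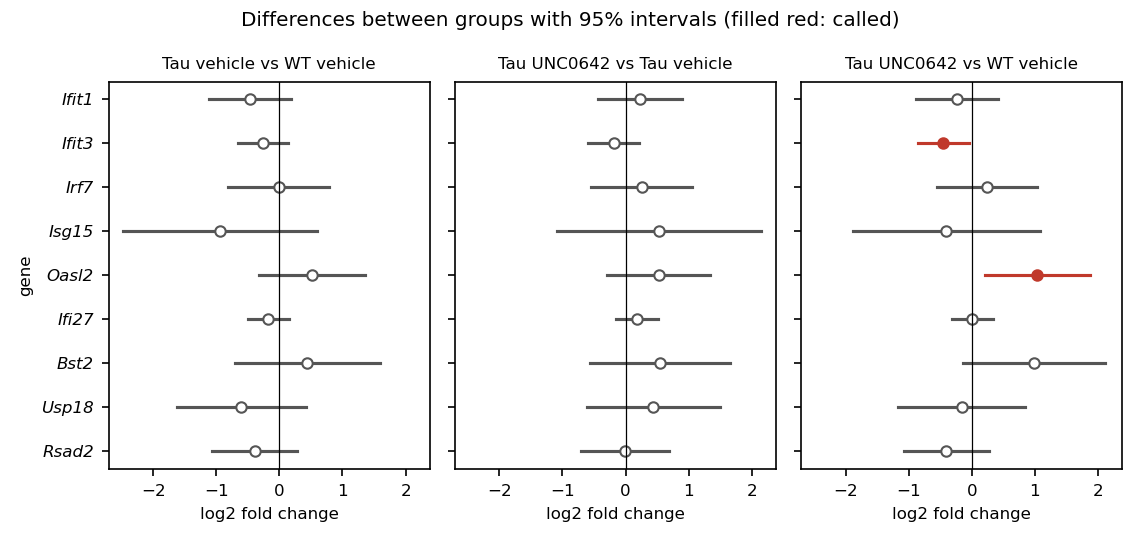
Log2 fold change of each gene (points) with its 95% interval (lines) in the 3 comparisons, from edgeR's quasi-likelihood fit to 6 libraries. Filled red points are called, and these are Ifit3 at -0.45 and Oasl2 at 1.04 in Tau + UNC0642 against WT, while every other interval includes 0.

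The ligands, which would start the response, were nearly absent. Of 18 type I interferon genes listed, Ifnb1 included, 16 had no count in any library. Ifnk had 3 counts, all in Tau replicate 2, and Ifna12 had 2 counts, both in WT replicate 2, and none passed the filter. A count of 0 allows up to 0.178 CPM in the least deep library. No difference in the ligands was detectable at this depth.

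The receptor and its signalling chain were well covered. Ifnar1 stood between 53.1 and 60.9 CPM and Ifnar2 between 8.37 and 11.5 CPM, and neither was called. Of the 7 genes of this list, none was called between Tau + vehicle and WT, where none had an unadjusted p under 0.05 either. Stat2, a subunit of the complex that binds the response element, was at 30.1 and 30.8 CPM in WT, 31.6 and 28.5 CPM in Tau + vehicle, and 26.96 and 19.1 CPM in Tau + UNC0642. Both UNC0642 libraries were the lowest, and replicate 2, the library with the higher Oasl2, held the lowest value. Stat2 fell by 0.39 ± 0.15 against Tau + vehicle (adjusted p = 0.5129) and by 0.41 ± 0.15 against WT (adjusted p = 0.3272) on the log2 scale in edgeR's test. It was the only gene of the list called in each of these comparisons (14.3%, beside 7.69% and 9.47% of all genes). Its partner Irf9 was not called, with a log2 fold change of -0.07 ± 0.17 between UNC0642 and vehicle in Tau mice. Without UNC0642 replicate 2 the differences of Stat2 were -0.15 and -0.17. With a term for sex-linked expression they were -0.36 and -0.39, and none of these was called. Without Tau replicate 1 the first was -0.31 and without WT replicate 2 the second was -0.39, and neither was called. Without UNC0642 replicate 1 they were -0.65 and -0.67, both called. DESeq2's Wald test also called both, at -0.38 and -0.40 (adjusted p = 0.6788 and 0.284).

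Of 19 tested genes that sense nucleic acids or pass on the signal, 2 were called lower between Tau + vehicle and WT (10.5%), a share near the 9.81% of all genes called in that comparison. Ikbke, a kinase that activates IRF3 and IRF7, had a log2 fold change of -1.41 ± 0.54 (adjusted p = 0.3474, edgeR). Tlr9, the endosomal receptor for CpG DNA, had one of -0.81 ± 0.36 (adjusted p = 0.3975, edgeR). Ikbke was at 1.54 and 1.09 CPM in WT, 0.608 and 0.344 CPM in Tau + vehicle, and 0.355 and 0.750 CPM in Tau + UNC0642, and its WT libraries did not overlap the others. None of the 19 was called between UNC0642 and vehicle in Tau mice in edgeR's test, nor had any an unadjusted p under 0.05. Ikbke alone was called between Tau + UNC0642 and WT, at -1.21 ± 0.54 (5.26% of the list, beside 9.47% of all genes). Without the library labelled WT replicate 1 the differences of Ikbke were -1.15 and -0.95 and that of Tlr9 was -0.79, and none was called. DESeq2's Wald test called neither gene in any comparison. With at least 10 counts in every library Ikbke was not tested. Of 8 negative regulators, 1 was called between Tau + vehicle and WT, beside 9.81% of all genes. This was Ptpn2, a phosphatase of JAK and STAT proteins, which rose by 0.27 ± 0.12. It went from 16.7 and 19.0 CPM in WT to 21.6 and 21.4 CPM in Tau + vehicle (adjusted p = 0.3933, edgeR). Without the library labelled WT replicate 1 this difference was 0.18 and not called. None of the 8 was called between UNC0642 and vehicle in Tau mice, beside 7.69% of all genes. Between Tau + UNC0642 and WT 2 of the 8 were called, beside 9.47% of all genes. These were Ptpn1 and Ptpn2, which rose by 0.40 ± 0.10 and 0.39 ± 0.12 (adjusted p = 0.171 and 0.2411, edgeR).

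Among 5 tested genes of interferon gamma and its receptor chain, Ciita, the regulator of MHC class II genes, rose with UNC0642 in Tau mice, from 1.25 and 1.55 CPM to 3.26 and 2.43 CPM (log2 fold change 1.03 ± 0.34, adjusted p = 0.4441, edgeR). Ciita was the only gene of this list called there (20.0%, beside 7.69% of all genes). It stood at 2.56 and 2.03 CPM in WT, and the difference with UNC0642 was 0.69 and not called with a term for sex-linked expression. That term rests on the 2 WT libraries alone and cannot separate sex from treatment. Jak2, a kinase of the interferon gamma receptor, rose by 0.32 ± 0.09 between Tau + UNC0642 and WT, the only gene of the list called there (20.0%, beside 9.47% of all genes). It was not called without UNC0642 replicate 2 (0.23) or without WT replicate 2 (0.26). The term for sex-linked expression nearly repeats the latter fit, and with it Jak2 was at 0.26 and not called. Without the library labelled WT replicate 1 Jak2 was at 0.38 and called. In this fit no gene of the signalling, sensing, regulator or interferon gamma lists passed an adjusted p under 0.05 in any of the 3 comparisons, and without the filter on low counts Ptpn1 did between Tau + UNC0642 and WT (adjusted p = 0.03306, edgeR).

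The rest of the response was read from 64 other interferon-stimulated genes, of which 54 passed the filter. Between Tau + vehicle and WT 3 of the 54 were called, all lower (5.56%), a share near the 6.10% of all genes called lower. The log2 fold changes were below 0 for 39 genes and above 0 for 15, with a median of -0.17. Samd9l, an antiviral factor that restrains cell growth, was at 9.54 and 11.95 CPM in WT, 6.29 and 6.13 CPM in Tau + vehicle, and 6.16 and 9.17 CPM in Tau + UNC0642. Its log2 fold change between Tau + vehicle and WT was -0.79 ± 0.21 (adjusted p = 0.2465, edgeR). The others were Ddx60, an RNA helicase of the response, at -0.88 ± 0.34, and Parp12, an ADP-ribosyltransferase, at -0.36 ± 0.16. Samd9l and Ddx60 were also called without the library labelled WT replicate 1, and Parp12 was not.

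With UNC0642 in Tau mice 1 of the 54 was called, and it was lower (1.85%, beside 3.95% of all genes called lower). This was Slfn8, a Schlafen family gene, which fell by 1.53 ± 0.60 from 1.07 and 0.859 CPM to 0.414 and 0.265 CPM (adjusted p = 0.4992, edgeR). The log2 fold changes of the 54 genes were above 0 for 35 and below 0 for 19, with a median of 0.17. Against WT 2 of the 54 were called, Samd9l and Slfn8, both lower (3.70%, beside 5.69% of all genes called lower). Of the 54 values in this comparison, 27 were above and 27 below 0. Slfn8 was not called there without the library labelled WT replicate 1 (-0.90), and Samd9l was not called without UNC0642 replicate 1 (-0.23). In this fit no interferon-stimulated gene passed an adjusted p under 0.05 in any comparison, and without the filter on low counts Samd9l did between Tau + vehicle and WT (adjusted p = 0.009054, edgeR).

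**Figure D4:**
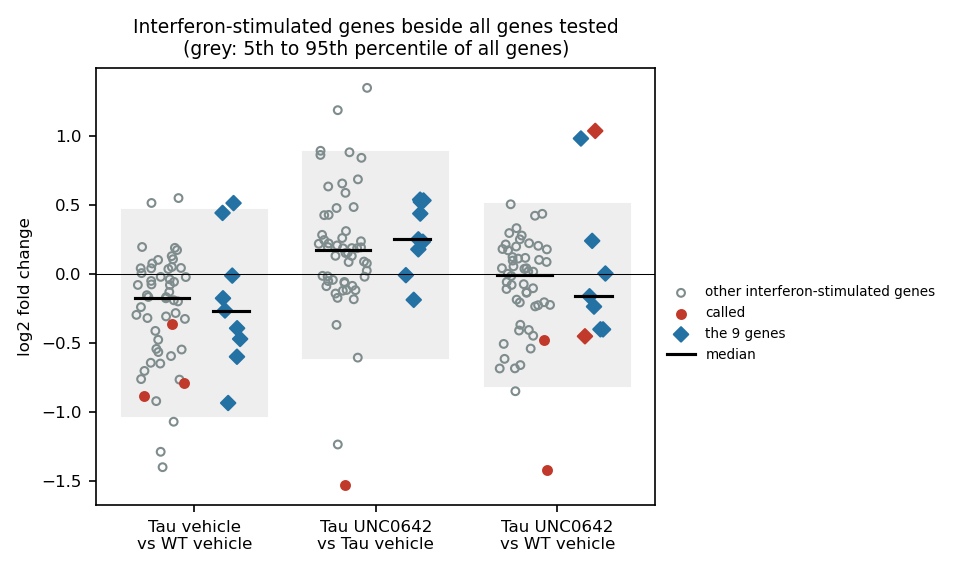
Log2 fold changes of the 54 other interferon-stimulated genes (circles) and of the 9 genes (diamonds) in the 3 comparisons, with called genes in red, medians as black lines and the 5th to 95th percentile of all 20409 genes in grey. The medians of the 9 genes are -0.26, 0.25 and -0.16, and most points lie inside the grey range.

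The libraries of a group differed from each other in these genes, and in Tau + UNC0642 the less deep library, replicate 1 with 17005664 counts, was the lower in most of them against replicate 2 with 22657673. Within Tau + UNC0642, 7 of the 9 genes were higher in replicate 2 than in replicate 1, with a median log2 difference of 0.47, and Irf7 and Bst2 were lower. Of the 54 other interferon-stimulated genes, 41 were higher in UNC0642 replicate 2, with a median of 0.34, while 49.9% of all genes were. Igtp, an immunity-related GTPase named here after its values were seen, went from 48 to 147 counts (2.84 to 6.48 CPM), and Oas2, an oligoadenylate synthetase chosen likewise, from 0 to 38 counts. UNC0642 replicate 2 was the highest library for 20 of the 54 genes and UNC0642 replicate 1 the lowest for 17. In the WT group 8 of the 9 genes were lower in replicate 2, with a median of -0.28, but the other interferon-stimulated genes did not lean this way, with 26 higher and 28 lower. In Tau + vehicle 5 of the 9 and 34 of the 54 were lower in replicate 2.

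Summed over the 9 genes, the levels were 47.0 and 40.2 CPM in WT, 38.2 and 37.1 CPM in Tau + vehicle, and 37.6 and 46.0 CPM in Tau + UNC0642, so WT was above Tau + vehicle and the treated mice spanned both. Markers of other cell types moved between the same libraries. The 15 endothelial markers, none of them at 0 in any library, summed to 312 to 320 CPM in WT, 263 to 270 CPM in Tau + vehicle, and 245 and 325 CPM in UNC0642 replicates 1 and 2. Of the 15, 6 were called lower and 1 higher between Tau + vehicle and WT (46.7% in all, beside 9.81% of all genes), with Cldn5, a tight junction protein of brain vessels, falling by 1.10 ± 0.17 (adjusted p = 0.0467, edgeR), or by 0.84 with an adjusted p = 0.1504 without the library labelled WT replicate 1. The 15 microglia markers, also never at 0, summed to 391 to 425 CPM in WT, 475 to 478 CPM in Tau + vehicle and 420 to 432 CPM in Tau + UNC0642. Between Tau + vehicle and WT 4 were called higher (26.7%, beside 3.72% of all genes called higher), the direction opposite to that of 7 of the 9 genes. With UNC0642 in Tau mice 4 microglia markers were called lower and 1 higher (33.3%), and 1 endothelial marker higher (6.67%), beside 7.69% of all genes. Between Tau + UNC0642 and WT 4 endothelial markers were called lower and 1 higher (33.3%, beside 9.47% of all genes). There 2 microglia markers were called higher and 1 lower (20.0%). Of 22 markers of border macrophages and blood-borne immune cells, 9 were tested and none was called in any comparison, nor did any have an unadjusted p under 0.05, and their sum ran from 18.6 to 23.95 CPM with 3 to 10 markers at 0. Meningeal fibroblast markers summed to 65.0 to 103 CPM in WT, 53.2 to 70.6 CPM in Tau + vehicle and 67.8 to 72.9 CPM in Tau + UNC0642, with 2 of 11 tested called lower between Tau + vehicle and WT (18.2%, beside 6.10% of all genes called lower). All 10 oligodendrocyte markers were highest in Tau replicate 2, also the lowest library for Ifit1, Irf7 and Isg15. Their log2 fold changes between Tau + vehicle and WT were above 0 for all 10, with a median of 0.78, and 4 were called higher (40.0%, beside 3.72% of all genes). With UNC0642 in Tau mice they were below 0 for all 10, with a median of -0.73, and 2 were called lower (20.0%, beside 3.95% of all genes). The part of these cell types, of depth and of sex in the levels of the 9 genes was not tested.

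**Figure D5:**
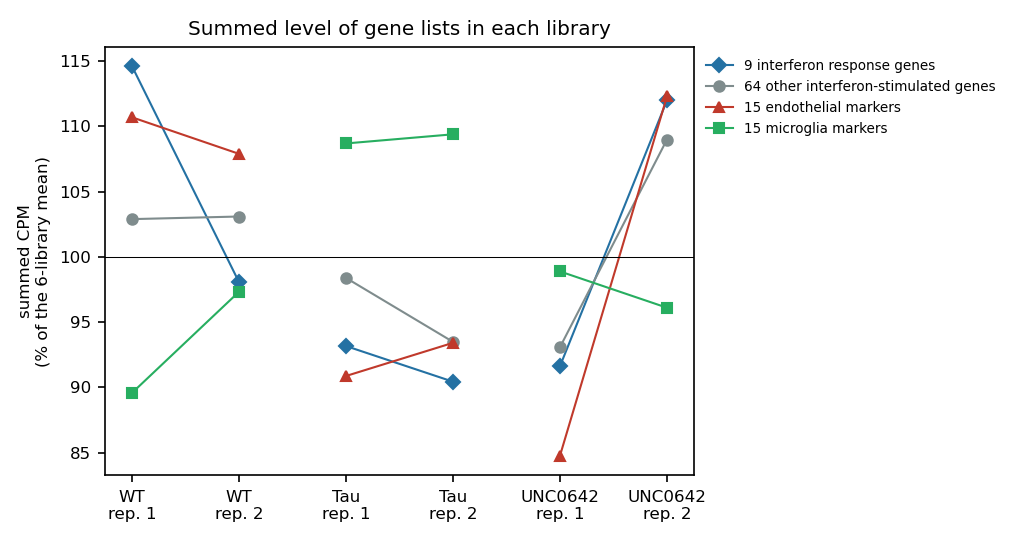
Summed CPM of the 9 genes, 64 other interferon-stimulated genes, 15 endothelial markers and 15 microglia markers in each library, as a percentage of the mean of the 6 libraries (y axis from about 83%). The 9 genes, the other interferon-stimulated genes and the endothelial markers are all above 100% in UNC0642 replicate 2 and below it in UNC0642 replicate 1 and both Tau + vehicle libraries, while the microglia markers are highest in Tau + vehicle.

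The 9 genes did not follow 1 pattern over the libraries. Of their 36 pairs, 26 had a positive Pearson correlation of log2 CPM, with a median of 0.217 and a range from -0.731 (Ifit3 and Bst2) to 0.846 (Ifit1 and Isg15). The 6 libraries share their depth and cell makeup with every gene, and these values are a description. Isg15, Usp18 and Ifit1 followed the mean of the other 8 genes most closely (r = 0.909, 0.792 and 0.645), while Irf7 (0.189), Oasl2 (0.113) and Bst2 (-0.484) followed it least. The genes outside the list whose levels were most like the mean of the 9 over the 6 libraries were 9530026P05Rik (r = 0.997), Gm37123 (r = 0.990) and Smarcc2 (r = 0.989), a chromatin remodelling subunit, followed by Grk2 and Gm43909. Smarcc2 varied only 1.09-fold between its highest and lowest library.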

How the data were processed

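Total RNA of PFC from biological duplicates per group was made into stranded, rRNA-depleted libraries. After trimming (Cutadapt) and alignment (TopHat2), featureCounts gave a read count per gene. The deposited counts were not normalized. The submitters' processing notes also name mm10, SAMtools and edgeR, and versions and the strand setting of counting were not given in the sources used here. Total counts per library set the precision of low genes. Spreadsheet dates stood in place of 26 gene symbols in the second replicates of both vehicle groups, and these were restored by row position.

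From these counts, edgeR 4.0.16 (R 4.3.3, limma 3.58.1) was run with filterByExpr (minimum count 10, minimum total 15), TMM scaling and a quasi-likelihood model with 1 mean per group over all 6 libraries, leaving 3 residual degrees of freedom. It was fitted to 20409 genes, and p-values were adjusted by Benjamini-Hochberg over all of them. Standard errors and 95% intervals use the moderated quasi-dispersion. The steps were tested on simulated data. Alternatives were the Wald test of DESeq2 1.42.0, edgeR with size factors of the DESeq2 type (RLE), other filters and the compared groups alone. Others were a replicate block, a sex-linked term, an adjusted threshold and fits without each library. Near-identical copies (blastn 2.17.0) were summed as an alternative chosen after seeing the data. Coordinates came from GENCODE M21 (GRCm38) and promoters from RefSeq (GRCm38.p6). Tables and figures used Python 3.11.15, numpy 2.4.6, pandas 2.3.3, scipy 1.17.1 and matplotlib 3.10.9.

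The 9 genes and all lists were chosen with earlier results of these data known. From each other list, the genes called in any comparison were named, at most 4 by smallest p, or the highest by mean CPM where none was called, together with the 5 genes most correlated with the 9 and the genes that check the labels. Of these, those beside a result are printed. Cell type marker lists were described by their counts and sums. Same-numbered libraries came from different mice and were not paired. One listed gene is not reported here.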

Additional observations from a re-analysis of the deposited data

How the results depend on the processing

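Of the alternative values of the log2 fold changes of the 9 genes, 321 kept their direction and their side of the threshold, 22 changed sign, 6 lost the call and 4 gained it. Of the alternative counts of called genes, 54 stayed within 1.5 times the first count and 30 did not. A count that stayed could hold other genes. With at least 10 counts in every library the 1 other interferon-stimulated gene called with UNC0642 in Tau mice was Gbp2, higher, and Slfn8 was not tested. With 2 mice per group and as few as 3 counts (Isg15), changes smaller than the intervals given were not detectable.

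For Tau + vehicle against WT, leaving out 1 library gave 0 to 1 of the 9 genes called, the 1 being Ifit1, which ranged from -0.88 to -0.18, and Irf7 ranged from -0.52 to 0.32. Of the other interferon-stimulated genes (3 called), DESeq2's Wald test called 1 of 54, beside 6.48% of all genes, and the adjusted threshold 0. For UNC0642 against vehicle in Tau mice, leaving out 1 library gave 0 to 1 of the 9, the 1 being Oasl2 without UNC0642 replicate 1. The ranges were -0.073 to 0.64 for Ifit1, -0.081 to 0.76 for Irf7, -0.13 to 0.95 for Oasl2, -0.088 to 1.01 for Bst2, -0.33 to 0.90 for Usp18 and -0.28 to 0.20 for Rsad2. With the sex-linked term Isg15 was -0.41, Ifi27 -0.094 and Bst2 -0.053, and Rsad2 was 0.0020 with at least 10 counts in every library. Of the other interferon-stimulated genes (1 called), DESeq2 size factors gave 2 of 54 and the 2 groups alone 2 of 50, beside 7.65% and 7.99% of all genes. No filter gave 6 of 64 and the sex-linked term 6 of 54, beside 6.78% and 8.05% of all genes. DESeq2's Wald test and the adjusted threshold gave 0. Leaving out 1 library gave 2 to 8, with 8 without UNC0642 replicate 1, a fit that left 1 treated library.

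For Tau + UNC0642 against WT (2 called), DESeq2's Wald test kept Oasl2 alone and the sex-linked term Ifit3 alone (1 each), the adjusted threshold gave 0 and leaving out 1 library 1 to 2. Ifit3 had -0.45 by DESeq2's Wald test and ranged from -0.56 to -0.35 over the left-out libraries, and Oasl2 had 0.98 with the sex-linked term and ranged from 0.39 to 1.46. Bst2 was called without a filter (0.98) and ranged from 0.36 to 1.45. The ranges were -0.55 to 0.0033 for Ifit1, -0.94 to 0.14 for Isg15, -0.13 to 0.15 for Ifi27 and -0.93 to 0.30 for Usp18. Ifi27 was -0.0090 with at least 10 counts in every library and -0.13 with the sex-linked term. Of the other interferon-stimulated genes (2 called), no filter gave 5 of 64, beside 7.49% of all genes. At least 10 counts gave 1 of 40 and the 2 groups alone 1 of 53, beside 10.2% and 9.58% of all genes. DESeq2's Wald test and the adjusted threshold gave 0, and the count also moved when 1 library was left out. The causes were not tested.

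Same-numbered libraries share only a number, and their deviations correlated at -0.034, -0.021 and -0.003. A replicate block gave 0, 0 and 2 called of the 9 genes in the 3 comparisons and 2, 1 and 2 of the other interferon-stimulated genes. Of all genes it called 8.78%, 6.88% and 8.6%. It moved Ifi27 in Tau + UNC0642 against WT to -0.00043.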
